A study of Mus musculus with 8 samples.

Results

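The genes described here are 38 markers and effectors of T cells, natural killer (NK) cells and B cells, measured in the livers of mice treated with a carcinogen. They were taken by name: 9 of the T cell receptor complex and its coreceptors, 9 of regulatory T cells and immune checkpoints, 10 of cytotoxic and NK cells, 2 chemokine receptors and 8 of B and plasma cells. Of these 38 names 37 had a probe among the 19321 genes of the array that had one, each gene being read from its probe with the highest mean over the 8 arrays. Tigit was the name without a probe in the tables used here. Of the 37 genes 34 entered the tests, for which all arrays of some group had to list the gene, and Gzmk, Cxcr6 and Pax5 did not meet this. Of the 34 tested genes 7 were without a value on at least 1 array.

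The study profiled total liver RNA on 8 single-colour Toray arrays. All mice, those on normal diet included, had received the carcinogen DMBA at 4 to 5 days of age and then a diet for 30 weeks. The groups were tumours from mice 117, 186 and 1 on high fat diet (n = 3), non-tumour tissue of the livers of the same 3 mice (n = 3), and liver of normal diet-fed mice 117 and 120 (n = 2). The normal diet-fed mouse 117 is another animal than the high fat diet-fed mouse 117. The design therefore asks what differs between tumour and surrounding liver, and what differs between high fat and normal diet in livers that all met DMBA, while liver without DMBA is not a group in it.

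T cells recognise antigen through the T cell receptor, whose signal is carried by the CD3 chains and whose coreceptor is CD4 on helper and regulatory cells and CD8 on killer cells. Killer T cells and NK cells kill by releasing perforin and granzymes, B cells signal through an antigen receptor held together by CD79A and CD79B, and plasma cells secrete antibody. The liver holds many resident NK and T cells, and inhibitory receptors such as PD-1 and CTLA-4 restrain T cells in tumours. In bulk tissue fewer cells of a type and less RNA per cell cannot be told apart.

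Levels below are deposited normalised intensities, a scale set so that the median listed probe has the value 25. A probe too close to the blank spots has no value in the deposited tables and is called unlisted. The lymphocyte genes were dim: 27 of 37 were listed on all 8 arrays (73.0%, against 79.4% of all genes), and 30 of 37 reached 25 on no array (81.1%, against 48.2% of all genes). The 6 with a mean of 25 or more were Cd247, Foxp3, Il2ra, Tbx21, Cd79b and Cd22. The other 21 genes listed everywhere averaged under 25, and 10 were listed on 1 to 7 arrays. Dim did not always mean near the blanks: 20 of 37 lay over 5 standard deviations of the blank spots above their mean on every array, and 17 did not. These 17 were Cd3e, Cd3g, Cd2, Cd5, Cd8b1, Ctla4, Gzma, Gzmk, Prf1, Nkg7, Ncr1, Klrk1, Cxcr3, Cxcr6, Pax5, Blk and Tnfrsf17. Single arrays listed 31 to 37 of the 37 genes, the lowest number on normal diet 120 and the highest on normal diet 117.

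Defining markers of the cell types differed in this. Foxp3, Cd79b and Cd22 lay well above the blanks on every array, as did Cd3d at 10.3 to 16.6. Cd3e, the signalling chain that marks T cells, was listed on 1 of 3 tumour arrays, 1 of 3 non-tumour arrays and both normal diet arrays, at 1.4 to 2.9. Pax5, the B cell identity factor, was listed on 1 of 8 arrays. Ncr1, the NK receptor NKp46, was listed on 7 of 8 arrays at 1.8 to 4.1. Ptprc, which encodes the leukocyte antigen CD45, was listed on all arrays, at 36.4, 57.6 and 49.2 in tumours 117, 186 and 1, 58.5, 61.8 and 51.8 in non-tumour tissue, and 37.3 and 38.1 on normal diet. Its high fat non-tumour values lay above both normal diet values, and the difference did not pass the test (0.34 ± 0.08 SE on the log2 scale, adjusted p 0.0848).

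**Figure D1:**
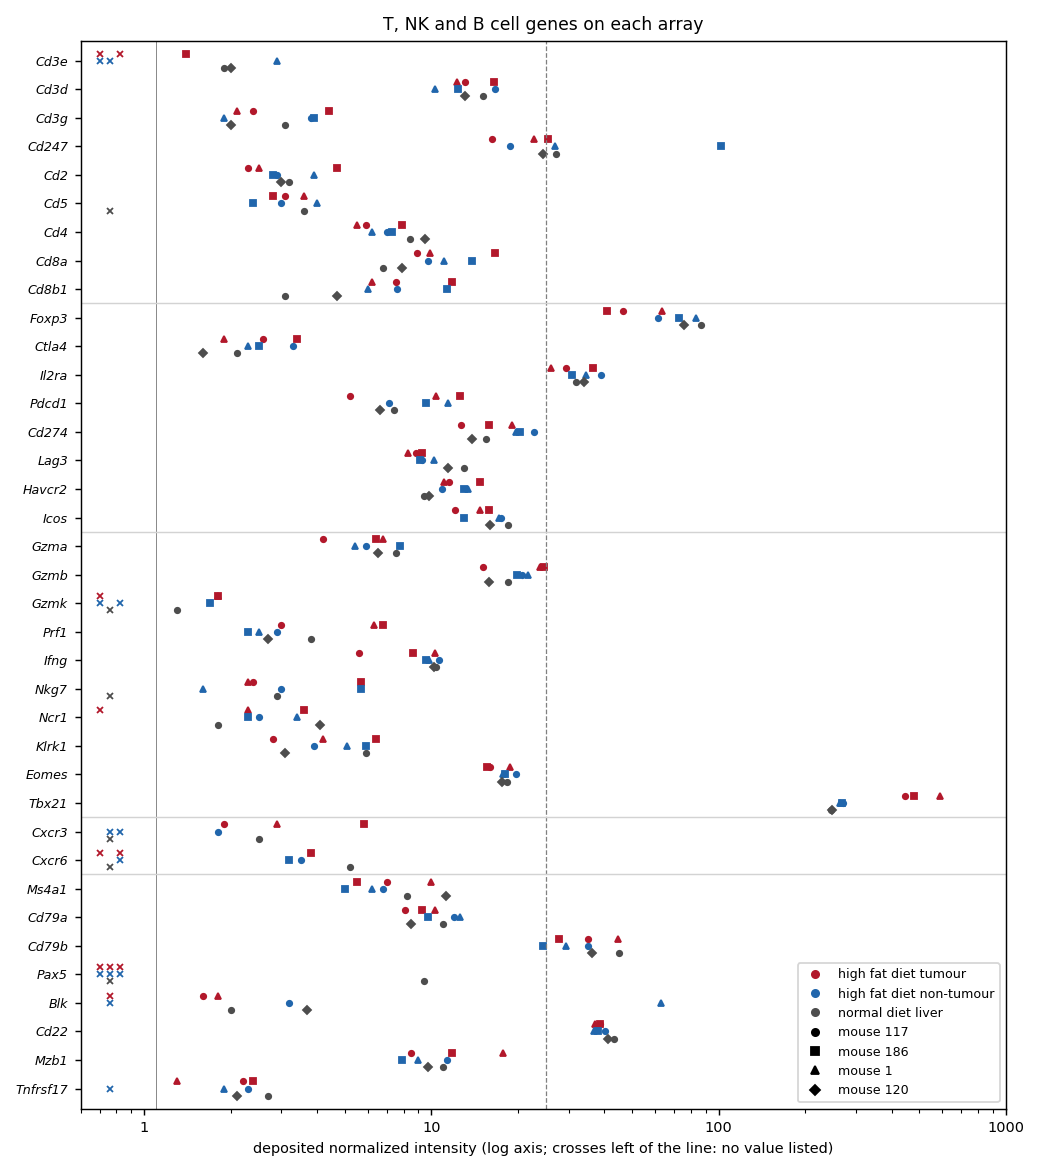
Deposited normalised intensity (log axis) of the lymphocyte genes on every array, with tumour arrays in red, non-tumour arrays in blue and normal diet arrays in grey, and crosses for arrays where a gene was unlisted. Marker shapes give the mouse number, and mouse 117 on normal diet is another animal. Most genes lie under the line at 25, the median of the listed probes, and Tbx21 is the one gene whose points stand well above the rest of the plot, between 246.2 and 589.3.

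Between tumour and non-tumour tissue 1 of 34 lymphocyte genes changed at an adjusted p under 0.05 (limma, Benjamini-Hochberg over 16800 genes), where 25.4% of all genes did. It was Tbx21, which rose. Between tumour and normal diet liver Tbx21 again was the 1 gene of 34 that changed, against 27.9% of all genes. Between non-tumour and normal diet liver 0 of 34 changed, against 3.83% of all genes, and 3 of 34 had an unadjusted p under 0.05, against 20.0% of all genes. Among genes as dim as the 21 lymphocyte genes listed everywhere with a mean under 25, the shares called were 12.7%, 16.2% and 1.47% in these 3 comparisons, and 0 of the 21 were called in any of them. The 3 comparisons share arrays, so their results are not independent of each other.

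The differences of the 34 genes were centred near 0. Their median log2 difference was -0.01 between tumour and non-tumour tissue (all genes -0.01), 0.02 between non-tumour and normal diet liver (all genes -0.0050), and 0.00034 between tumour and normal diet liver (all genes -0.01). Because a fixed offset of 50 was added to every signal, folds of dim genes are understated. A doubling of a deposited value of 5, 10, 25 or 250 comes out as about 0.15, 0.26, 0.46 or 0.89 in log2. These figures are from before quantile normalisation, at the median scanner scale of the arrays. After it, Tbx21 at a ratio of 1.88 between tumour and non-tumour tissue came out as 1.00. Doublings and halvings below are likewise from before that normalisation and the intervals from after it, so the counts are approximate. On each gene's own scale the 95% interval of the difference left out a doubling in tumour over non-tumour tissue for 31 of 34 genes. The others were Prf1, Tbx21 and Cxcr3, and Cxcr3 entered the test only through the tumour group. The 31 include Cd3e, listed on 1 array of each of these groups, and Tnfrsf17, whose doubling (0.0578) barely exceeded the upper bound (0.0576). They also include Cd247 and Blk, each with 1 non-tumour array far above the others (101.8 and 62.8). For these genes the interval cannot decide on a doubling. The counts were not set against all genes. The interval left out a halving for 22 of 34. For non-tumour against normal diet liver, with 2 arrays on one side, the interval left out a doubling for 19 and a halving for 16 of 34. For the other genes a change of that size was not excluded, which does not say that it could not be detected.

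**Figure D2:**
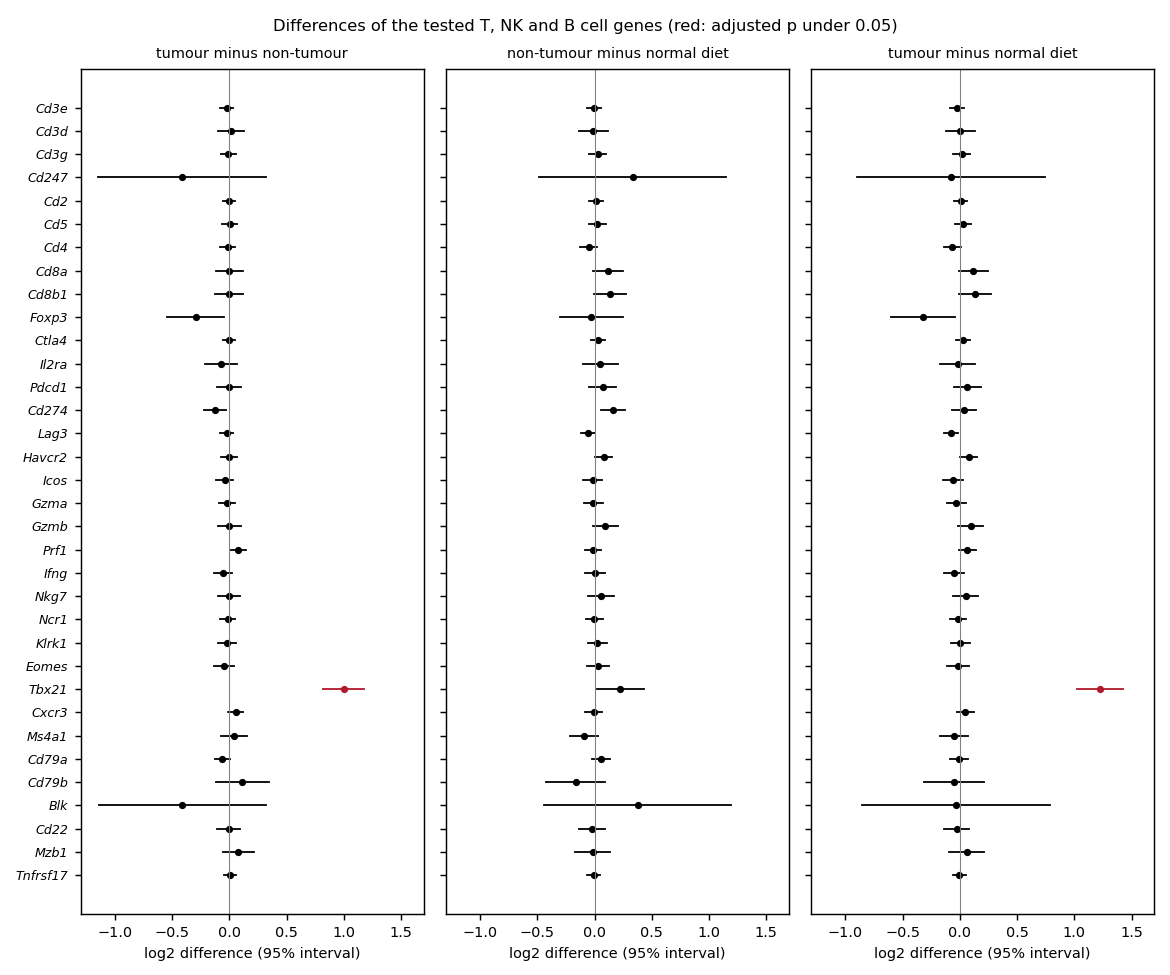
Log2 difference with its 95% interval from limma for each tested lymphocyte gene in the 3 comparisons: tumour minus non-tumour, non-tumour minus normal diet, and tumour minus normal diet. Red points passed the test, which Tbx21 did at 1.00 and 1.22, and the widest intervals, up to 0.82 on each side, belong to Cd247 and Blk.

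Tbx21 encodes T-bet, the T-box transcription factor that directs type 1 helper T cells and NK cells and is known to drive interferon gamma. It read 446.2, 477.2 and 589.3 in tumours 117, 186 and 1, against 272.0, 268.2 and 265.2 in non-tumour tissue of the same mice and 246.2 and 247.3 on normal diet. All 3 tumours stood above every other array, while the 5 other arrays lay close together. Tumours averaged 504 ± 75.3 and non-tumour tissue 268 ± 3.41 (SD, n = 3 each), a ratio of 1.88 and a log2 difference of 1.00 ± 0.08 (SE, adjusted p 0.000591, limma). Against normal diet liver (247 ± 0.778, SD, n = 2) the ratio was 2.04 and the log2 difference 1.22 ± 0.08 (adjusted p 0.000370). Non-tumour tissue exceeded normal diet liver by a log2 difference of 0.23 ± 0.08, which did not pass the test (adjusted p 0.203).

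The tumour against non-tumour call for Tbx21 ended when the local background reading of each spot replaced the blank spots (0.64, adjusted p 0.123), a setting under which 0.75% of all genes were called. The difference between non-tumour and normal diet liver passed when arrays were scaled to the same median (0.45, adjusted p 0.0393). The gene was read from 1 probe, whose specificity was not tested.

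Genes that T-bet is known to act on in lymphocytes did not pass with it. Ifng, which encodes interferon gamma, read 5.6, 8.6 and 10.3 in tumours 117, 186 and 1, against 10.6, 9.6 and 9.8 in non-tumour tissue and 10.4 and 10.2 on normal diet. Its tumour values were the most spread and overlapped both other groups (log2 difference -0.05 ± 0.03 against non-tumour tissue, adjusted p 0.276). Cxcr3, a chemokine receptor of type 1 T cells and NK cells, read 1.9, 5.8 and 2.9 in the tumours and was listed on 1 non-tumour array at 1.8 and 1 normal diet array at 2.5. It was listed on all 3 tumour arrays and on 2 of the 5 others, and its log2 difference of 0.06 ± 0.03 between tumour and non-tumour tissue did not pass (adjusted p 0.185). Cxcr3 entered the test only through the tumour group, where it is high, so its difference adds no support to these values.

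Prf1, which encodes the pore-forming protein perforin, read 3.0, 6.8 and 6.3 in tumours 117, 186 and 1, against 2.9, 2.3 and 2.5 in non-tumour tissue and 3.8 and 2.7 on normal diet. Every tumour lay above every non-tumour array, tumour 117 by the least, while of the normal diet arrays 1 lay among the tumours and 1 below them. Prf1 lay near background, on its lowest array 2.3 standard deviations of the blank spots above their mean. The ratio of the tumour and non-tumour means was 2.09 and the log2 difference 0.08 ± 0.03 (adjusted p 0.0832). Without tumour 117 it passed (0.10, adjusted p 0.0367).

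The granzymes, proteases that enter the target cell through perforin pores, did not follow this order. Gzmb read 15.1, 24.6 and 23.8 in the tumours, 20.7, 19.8 and 21.6 in non-tumour tissue and 18.5 and 15.9 on normal diet, with tumour 117 below every other array (tumour against non-tumour, adjusted p 0.991). Without tumour 117 its difference between tumour and normal diet liver passed (0.14, adjusted p 0.0185), against 0.09 ± 0.05 with it (adjusted p 0.181). Gzma read 4.2, 6.4 and 6.8 in the tumours, 5.9, 7.8 and 5.4 in non-tumour tissue and 7.5 and 6.5 on normal diet, and the groups overlapped. Gzmk was listed at 1.8 on tumours 186 and 1, at 1.7 on non-tumour 186 and at 1.3 on normal diet 117, and was not tested.

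The NK cell genes Klrk1, Nkg7, Ncr1 and Eomes overlapped between all groups where they were listed. Klrb1c and Klra8, NK cell receptors outside the list, did not. Klrb1c read 1.7, 1.6 and 1.6 in tumours, was unlisted in non-tumour tissue and read 4.1 and 2.9 on normal diet. Klra8 read 2.5, 1.9 and 2.0 in non-tumour tissue, below 3.9 and 2.7 on normal diet. Neither passed in any comparison, and orders without overlap were common over the whole array, as given below. Klrk1, the activating receptor NKG2D, read 2.8, 6.4 and 4.2 in tumours, 3.9, 5.9 and 5.1 in non-tumour tissue and 5.9 and 3.1 on normal diet. Nkg7, a protein of cytotoxic granules, read 2.4, 5.7 and 2.3 in tumours, 3.0, 5.7 and 1.6 in non-tumour tissue and 2.9 on normal diet 117, and was unlisted on normal diet 120. In both tissues mouse 186 gave the highest value of Klrk1 and of Nkg7. Eomes, the T-box factor related to T-bet, read 16, 15.6 and 18.7 in tumours, 19.7, 18.0 and 17.7 in non-tumour tissue and 18.3 and 17.6 on normal diet. Its difference between tumour and non-tumour tissue was -0.05 ± 0.04 on the log2 scale (adjusted p 0.435), against 1.00 for Tbx21. The test of the difference between these 2 genes was not run.

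**Figure D3:**
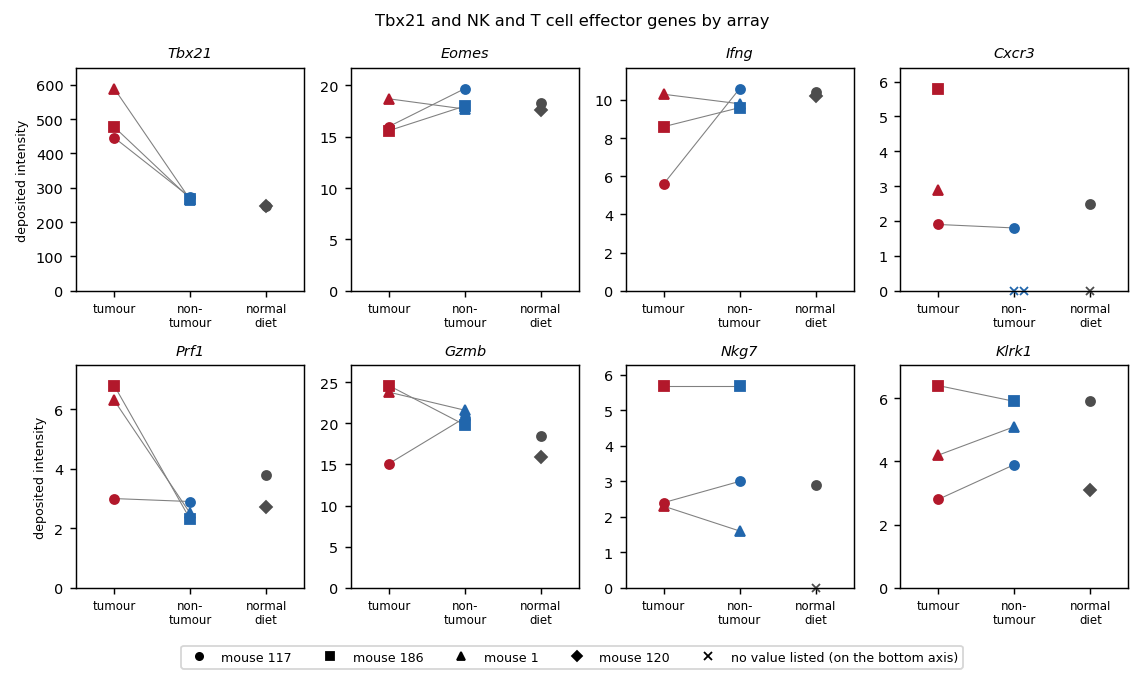
Deposited normalised intensity of Tbx21 and of cytotoxic and NK cell genes on each array (linear axes from 0), with lines joining tumour and non-tumour tissue of the same mouse. The circle marks mouse 117 in each group, which on normal diet is another animal, and a cross on the bottom axis marks an unlisted value. Tbx21 and Prf1 have all 3 tumours above the 3 non-tumour arrays, Cxcr3 is unlisted on 2 non-tumour arrays, and the other genes overlap.

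T-bet binds the T-box element, whose core is written here as GGTGTGA, and promoter windows of 250 bases before to 50 bases after a gene's start were searched for these letters on both strands (the reverse strand reads TCACACC). Such windows were at hand for 29 of the 38 genes (31 windows). The letters stood in 2 of those windows, of Nkg7 (13 bases before the start) and Gzmk (75 bases before the start), and in 3.98% of all 32851 windows. With a further base in front, AGGTGTGA stood in the Nkg7 window alone and in 1.28% of all windows. A match is a description of the letters, and says nothing of binding in these livers. The windows of these 2 genes are shown with that of Tbx21, the gene that changed, which held 0 copies. They are from RefSeq, build GRCm38.p6, written 5′ to 3′ on the gene's strand, with the searched letters in capitals. The windows are chr11:97115282-97115581 on the minus strand for Tbx21, chr7:43436888-43437187 on the plus strand for Nkg7 and chr13:113180916-113181215 on the minus strand for Gzmk.
Tbx21: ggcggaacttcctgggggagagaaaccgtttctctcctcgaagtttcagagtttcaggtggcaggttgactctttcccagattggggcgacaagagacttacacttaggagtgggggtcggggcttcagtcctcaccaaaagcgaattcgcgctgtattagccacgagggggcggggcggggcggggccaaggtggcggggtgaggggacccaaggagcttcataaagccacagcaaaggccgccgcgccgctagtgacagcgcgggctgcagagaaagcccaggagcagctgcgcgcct
Nkg7: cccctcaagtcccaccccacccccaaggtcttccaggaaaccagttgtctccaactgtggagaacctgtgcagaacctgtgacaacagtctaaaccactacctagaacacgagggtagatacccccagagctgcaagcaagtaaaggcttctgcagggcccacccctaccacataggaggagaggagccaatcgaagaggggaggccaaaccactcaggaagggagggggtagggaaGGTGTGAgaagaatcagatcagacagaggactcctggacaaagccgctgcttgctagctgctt
Gzmk: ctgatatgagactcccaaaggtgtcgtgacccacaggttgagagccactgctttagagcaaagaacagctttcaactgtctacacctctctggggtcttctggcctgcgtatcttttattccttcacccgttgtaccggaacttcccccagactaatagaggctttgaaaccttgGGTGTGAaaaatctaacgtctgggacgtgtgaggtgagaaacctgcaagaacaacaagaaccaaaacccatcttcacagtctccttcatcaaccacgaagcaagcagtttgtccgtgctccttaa
Beside these sequences, Nkg7 had a log2 difference of -0.0043 between tumour and non-tumour tissue (adjusted p 0.958) and Gzmk had no test, since no group listed it on all of its arrays.

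Of the T cell receptor complex and its coreceptors, 0 of 9 passed in any comparison. Cd3d, a CD3 chain, read 13.1, 16.5 and 12.3 in tumours 117, 186 and 1, 16.6, 12.4 and 10.3 in non-tumour tissue and 15.1 and 13.1 on normal diet, and all groups overlapped (tumour against non-tumour, adjusted p 0.844). Cd3g, another CD3 chain, read 2.4, 4.4 and 2.1 in tumours, 3.8, 3.9 and 1.9 in non-tumour tissue and 3.1 and 2.0 on normal diet. Cd247, the zeta chain that passes on the receptor's signal, read 16.2, 25.4 and 22.7 in tumours, 18.8, 101.8 and 26.9 in non-tumour tissue and 27.1 and 24.4 on normal diet. One array, non-tumour 186, stood far above the other 7, and the difference between tumour and non-tumour tissue was -0.41 ± 0.31 (adjusted p 0.398). The adhesion receptor Cd2 (2.3 to 4.7 over all arrays) and Cd5 (2.4 to 4.0, unlisted on normal diet 120), which dampens receptor signals, overlapped between groups.

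The CD8 coreceptor genes were higher on all high fat diet arrays than on both normal diet arrays, without passing the test. Cd8a read 8.9, 16.7 and 9.9 in tumours 117, 186 and 1, 9.7, 13.8 and 11.1 in non-tumour tissue and 6.8 and 7.9 on normal diet. Cd8b1, the beta chain of CD8, read 7.5, 11.8 and 6.2 in tumours, 7.6, 11.3 and 6.0 in non-tumour tissue and 3.1 and 4.7 on normal diet. Mouse 186 gave the highest value of both genes in both of its tissues. Cd8b1 had a ratio of 2.13 and a log2 difference of 0.13 ± 0.06 between non-tumour and normal diet liver (adjusted p 0.274). Its lowest array lay 3.6 standard deviations of the blank spots above their mean. For Cd8a the ratio was 1.57 and the log2 difference 0.12 ± 0.05 (adjusted p 0.284). Tumours against normal diet liver gave ratios of 2.18 for Cd8b1 (adjusted p 0.146) and 1.61 for Cd8a (adjusted p 0.152). Tumour and non-tumour tissue had ratios of 1.02 for Cd8b1 and 1.03 for Cd8a (adjusted p 0.993 and 1).

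A second probe of Cd8a did not show this order: it read 3.8 and 1.6 in tumours 186 and 1 and was unlisted in tumour 117, read 2.0, 1.5 and 1.9 in non-tumour tissue, and read 3.5 on normal diet 117 and was unlisted on normal diet 120. Cd4 ran the other way to the CD8 genes. It read 5.9, 7.9 and 5.5 in tumours, 7.0, 7.3 and 6.2 in non-tumour tissue and 8.4 and 9.5 on normal diet, so that both normal diet values lay above all 6 others, at ratios of 0.719 for tumours and 0.764 for non-tumour tissue over normal diet liver (adjusted p 0.164 and 0.413).

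Such orders were common over the whole array. Between non-tumour and normal diet liver 12 of 28 lymphocyte genes listed on all arrays of both groups did not overlap, where 44.7% of all genes did not. The 7 that were higher were Cd8a, Cd8b1, Ctla4, Cd274, Havcr2, Gzmb and Tbx21 (of all genes 13% were higher without overlap), and the 5 that were lower were Cd4, Lag3, Ms4a1, Cd79b and Cd22 (31.7%). Between tumour and normal diet liver 9 of 28 did not overlap, against 56.8% of all genes. The 4 that were higher were Cd8a, Cd8b1, Havcr2 and Tbx21 (of all genes 16.7%), and the 5 that were lower were Cd4, Foxp3, Lag3, Icos and Cd22 (40.1%). Between tumour and non-tumour tissue 3 of 29 did not overlap, against 38.4% of all genes. Tbx21 and Prf1 were higher, as 15.2% of all genes were, and Cd274 was lower, as 23.3% were. The scanner also differed with the diet: the file headers give a gain slope of 0.464 to 0.465 on the high fat diet arrays and 0.444 to 0.445 on the normal diet arrays. One unit of deposited intensity was worth 1.11 to 1.29 scanner units on high fat diet arrays and 0.774 to 0.833 on normal diet arrays, so scan setting and diet cannot be told apart.

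Regulatory T cell and checkpoint genes gave 0 of 8 calls in each comparison. Foxp3, the transcription factor that defines regulatory T cells, read 46.3, 40.7 and 63.6 in tumours 117, 186 and 1, 61.4, 72.6 and 83.7 in non-tumour tissue and 87.0 and 75.7 on normal diet. Each tumour lay below the non-tumour tissue of its own mouse and below both normal diet arrays, although tumour 1 overlapped the non-tumour group. Tumours averaged 50.2 ± 11.9 and non-tumour tissue 72.6 ± 11.2 (SD, n = 3 each), a log2 difference of -0.29 ± 0.10 (adjusted p 0.0856). Against normal diet liver the difference was -0.32 ± 0.12 (adjusted p 0.0843). Without tumour 1 both differences passed (adjusted p 0.0363 against non-tumour tissue and 0.0354 against normal diet liver), and with the deposited intensities that against normal diet liver did (adjusted p 0.0304). A second Foxp3 probe was listed on 4 of 8 arrays at 1.5 to 2.1.

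Il2ra and Ctla4, the interleukin receptor chain CD25 and the checkpoint receptor that regulatory T cells carry, did not have the order of Foxp3. Il2ra read 29.3, 36.4 and 26.1 in tumours, 38.9, 30.9 and 34.4 in non-tumour tissue and 31.8 and 34.1 on normal diet. Ctla4 read 2.6, 3.4 and 1.9 in tumours, 3.3, 2.5 and 2.3 in non-tumour tissue and 2.1 and 1.6 on normal diet. Their tumour values overlapped both other groups (tumour against non-tumour, adjusted p 0.442 for Il2ra and 0.959 for Ctla4).

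Cd274, which encodes the checkpoint ligand PD-L1, read 12.7, 15.9 and 19.0 in tumours 117, 186 and 1, 22.7, 20.4 and 19.7 in non-tumour tissue and 15.5 and 13.8 on normal diet. Non-tumour tissue was above all other arrays, and tumours overlapped normal diet liver. The log2 difference was -0.12 ± 0.04 between tumour and non-tumour tissue (adjusted p 0.0619) and 0.16 ± 0.04 between non-tumour and normal diet liver (adjusted p 0.106). Without tumour 1 the tumour difference passed (-0.16, adjusted p 0.0243).

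Pdcd1, the PD-L1 receptor PD-1, read 5.2, 12.6 and 10.4 in tumours, 7.1, 9.6 and 11.4 in non-tumour tissue and 7.4 and 6.6 on normal diet, and overlapped between groups. Lag3, an inhibitory receptor that binds MHC class II, read 8.8, 9.3 and 8.3 in tumours, 9.3, 9.1 and 10.2 in non-tumour tissue and 13.0 and 11.4 on normal diet. Both normal diet values were above the 6 high fat diet values, with a log2 difference of -0.08 ± 0.03 between tumour and normal diet liver (adjusted p 0.0652). It passed with arrays scaled to the same median (adjusted p 0.0294), with no filter on dim probes (0.0372) and without tumour 117 (0.0417). Havcr2, the inhibitory receptor TIM-3 that macrophages also carry, read 11.5, 14.8 and 11.1 in tumours, 10.9, 13.0 and 13.4 in non-tumour tissue and 9.4 and 9.8 on normal diet (tumour against normal diet, adjusted p 0.114). The 8 macrophage markers with a probe summed to 459 to 742 in tumours, 588 to 916 in non-tumour tissue and 665 to 1059 on normal diet, where Marco alone read 510.7 on normal diet 120. In tumours over non-tumour tissue Cd14 rose (2.11, adjusted p 0.00202), Clec4f and Vsig4 fell (-1.40 and -0.92, adjusted p 0.00800 and 0.00249) and 5 did not pass. Their part in the Havcr2 values was not tested. The costimulator Icos read 12.1, 15.9 and 14.8 in tumours, 17.5, 13.0 and 17.2 in non-tumour tissue and 18.4 and 16 on normal diet.

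**Figure D4:**
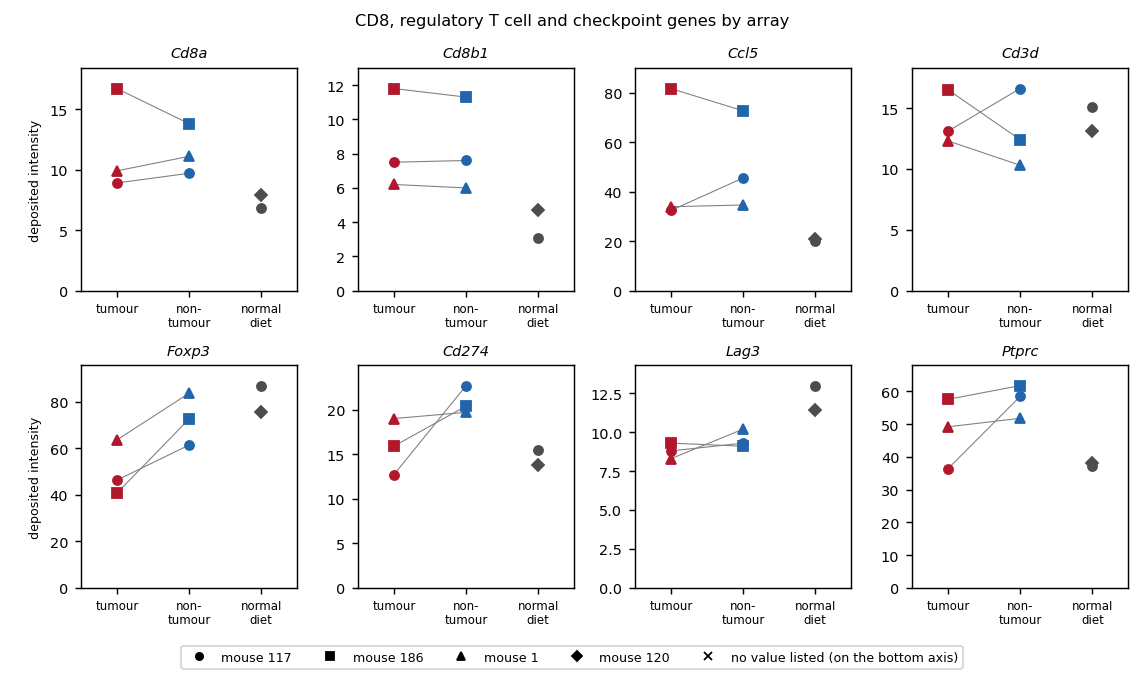
Deposited normalised intensity of CD8, regulatory T cell and checkpoint genes, with Ccl5 and Ptprc, on each array (linear axes from 0), with lines joining tumour and non-tumour tissue of the same mouse. The circle on normal diet is another mouse 117. Cd8a and Cd8b1 are higher on all 6 high fat diet arrays than on normal diet, and Foxp3 is lower in each tumour than in its own non-tumour tissue, none of which passed the test.

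Of the chemokine receptors, Cxcr6, which holds T cells and NK cells in the liver, was listed at 3.8 on tumour 186, at 3.5 and 3.2 on non-tumour 117 and 186 and at 5.2 on normal diet 117, and was not tested.

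B and plasma cell genes gave 0 of 7 calls in each comparison. Cd79b, a signalling chain of the B cell receptor, read 35.1, 27.8 and 44.6 in tumours 117, 186 and 1, 35.1, 24.5 and 29.3 in non-tumour tissue and 45.1 and 36.2 on normal diet. Non-tumour tissue lay below normal diet liver and tumours overlapped both (tumour against non-tumour 0.11 ± 0.10, adjusted p 0.462). Its partner Cd79a read 8.1, 9.3 and 10.3 in tumours, 12.0, 9.7 and 12.6 in non-tumour tissue and 11 and 8.5 on normal diet. Cd22, an inhibitory receptor of B cells, had the narrowest relative spread of these genes, at 38.5, 38.5 and 37.1 in tumours, 40.3, 38.1 and 36.9 in non-tumour tissue and 43.1 and 41.2 on normal diet (tumour against non-tumour, -0.01 ± 0.04, adjusted p 0.947). Ms4a1, which encodes CD20, read 7.0, 5.5 and 10 in tumours, 6.8, 5.0 and 6.2 in non-tumour tissue and 8.2 and 11.2 on normal diet.

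Blk, a B cell kinase, was listed at 62.8 on non-tumour 1 and at no more than 3.7 on the 5 other arrays that listed it, with a single array standing apart (tumour against non-tumour -0.41 ± 0.31, adjusted p 0.399). The plasma cell genes Mzb1, a chaperone of antibody assembly, and Tnfrsf17, the survival receptor BCMA, did not separate the groups. Mzb1 read 8.5, 11.8 and 17.7 in tumours, 11.3, 7.9 and 9.0 in non-tumour tissue and 11 and 9.7 on normal diet, highest in tumour 1 (adjusted p 0.389 against non-tumour tissue). Tnfrsf17 read 1.3 to 2.7 where it was listed. Pax5 read 9.4 on normal diet 117 and was unlisted on the other 7 arrays.

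One scaling choice moved the count of lymphocyte genes called between tumour and normal diet liver. With arrays scaled to the same median in place of quantile normalisation, 8 of 34 passed, 1 higher (Tbx21) and 7 lower (Cd2, Cd3e, Cd3g, Cd4, Lag3, Ncr1 and Tnfrsf17), against 1 higher and 0 lower in the quantile fit. Over all genes 40.8% passed in that setting, a larger share than the 8 of 34. Cd3e entered the test only through the normal diet group, the one that listed it on all of its arrays, so its call adds no support. The 7 lower genes all read under 25 on every array, and their log2 differences in that setting were -0.16 to -0.11.

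Arrays and mice differed in how often they gave the highest value. Among the 21 lymphocyte genes listed everywhere with a mean under 25, tumour 186 held the highest of the 3 tumour values for 14, tumour 1 for 7 and tumour 117 for 0. Among 5617 other genes of like brightness tumour 186 was highest for 59.6%, tumour 1 for 29.8% and tumour 117 for 8.19%, the same order of arrays. Mouse 186 was the highest of its group in both of its tissues for 6 of 27 lymphocyte genes (22.2%), namely Cd3g, Cd247, Cd4, Cd8a, Cd8b1 and Klrk1, against 10.3% of all genes and 11.8% of those of like brightness. Ccl5, a chemokine made by T cells and NK cells and no member of the list, had the same order, at 32.4, 81.6 and 33.9 in tumours 117, 186 and 1, 45.5, 72.6 and 34.6 in non-tumour tissue and 19.9 and 20.9 on normal diet. Ccl5 was chosen after its values were seen, so it adds no support to these counts. No test was made of these counts.

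Genes that act with the lymphocyte genes were followed through 7 lists of 136 names, of which 98 were tested. Between tumour and non-tumour tissue 13 of 98 rose and 6 fell (19.4% called, against 25.4% of all genes), while their median log2 difference was 0.01. Between non-tumour and normal diet liver 1 of 98 rose and 0 fell, and between tumour and normal diet liver 21 rose and 4 fell (25.5%). Over all genes 3.83% and 27.9% were called in these comparisons. Pan-leukocyte genes gave 1 rise and 2 falls of 18 between tumour and non-tumour tissue, and summed to 636 to 847 in tumours, 787 to 912 in non-tumour tissue and 639 to 644 on normal diet. Lcp1, an actin-bundling protein of leukocytes, fell to 51.7, 78.1 and 67.9 in tumours, against 136.4, 126.7 and 136.7 in non-tumour tissue (-0.65 ± 0.07, adjusted p 0.00130). Cytip, an adhesion regulator, rose (0.40, adjusted p 0.00347), and the myeloid and B cell factor Spi1 fell (-0.14, adjusted p 0.0211, and 0.0747 with mouse number as a block). The median log2 difference of these 18 was -0.07 for tumour minus non-tumour tissue and 0.19 between non-tumour and normal diet liver.

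Of the chemokines that draw lymphocytes, 2 of 11 rose and 1 fell in tumours over non-tumour tissue (of all genes 12% rose and 13.4% fell). Cxcl13, which draws B cells through the receptor CXCR5, read 192.7, 192.4 and 499.6 in tumours 117, 186 and 1, against 3.5, 2.8 and 5.9 in non-tumour tissue and 22.6 and 65.2 on normal diet. Every tumour was far above its own non-tumour tissue, which was itself below normal diet liver (tumour against non-tumour 2.80 ± 0.34, adjusted p 0.00234). Against normal diet liver the tumour difference was 2.01 ± 0.38 (adjusted p 0.0104). It was 1.67 without normal diet 117, which leaves 1 normal diet array, and did not pass with the local background (1.34, adjusted p 0.257). The 3 lymphoid stroma markers with a probe, Cxcl13 itself among them, summed to 276 to 584 in tumours, 83.6 to 95.1 in non-tumour tissue and 94.6 to 137.7 on normal diet, and the part of such stroma was not tested. Cxcl11, a ligand of CXCR3, read 91.9, 88.6 and 80.4 in tumours, 40.9, 34.3 and 48.4 in non-tumour tissue and 46.8 and 63.8 on normal diet (tumour against non-tumour 0.66 ± 0.10, adjusted p 0.00419). Its tumour values lay above all others. Cxcl12, the CXCR4 ligand that stromal and endothelial cells make, fell to 213.5, 241.1 and 189.7 in tumours, against 616.9, 468.2 and 837.7 in non-tumour tissue and 993.7 and 923.4 on normal diet (-1.19 ± 0.18 against non-tumour tissue, adjusted p 0.00452). In the same groups 4 endothelial markers summed to 204 to 282 in tumours, 164.5 to 228 in non-tumour tissue and 216 on both normal diet arrays. Of these Pecam1 rose in tumours over non-tumour tissue (0.60, adjusted p 0.00850), Kdr and Stab2 did not pass (adjusted p 0.138 and 0.981) and Cdh5 was not tested.

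Of the other chemokine ligands of CXCR3 and CXCR6 on the list, Cxcl9 and Cxcl16 rose in tumours over normal diet liver, and Cxcl10 did not pass (0.49, adjusted p 0.0611). Between tumour and non-tumour tissue none of these passed (adjusted p 0.146 for Cxcl9, 0.220 for Cxcl10 and 0.235 for Cxcl16). Cxcl9, another CXCR3 ligand, read 227.8, 231.2 and 265.4 in tumours, 135.2, 261.8 and 94.2 in non-tumour tissue and 102.0 and 61.8 on normal diet. The tumour against normal diet difference was 1.40 ± 0.32 (adjusted p 0.0216), and it did not pass without normal diet 117 (0.0711), normal diet 120 (0.129), tumour 117 (0.0548) or tumour 1 (0.0511). Cxcl16, the CXCR6 ligand, read 108.3, 134.1 and 106.7 in tumours, 99.0, 118.3 and 99.4 in non-tumour tissue and 74.8 and 87.0 on normal diet (tumour against normal diet 0.51 ± 0.11, adjusted p 0.0172). Its high fat diet values all lay above normal diet. The tumour against normal diet difference of Cxcl16 did not pass with the local background (0.35, adjusted p 0.199), and was 0.42 without normal diet 117.

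Among regulatory T cell partners 3 of 13 rose and 1 fell in tumours over non-tumour tissue, where 12% of all genes rose and 13.4% fell. Tnfrsf18, which encodes GITR, a receptor that regulatory T cells carry, read 81.7, 55.6 and 96.9 in tumours, against 10, 10.1 and 7.3 in non-tumour tissue and 9.9 and 8.3 on normal diet. Tumours were above all other arrays at a ratio of 8.55 over non-tumour tissue (1.21 ± 0.13, adjusted p 0.00170). Foxp3 had a ratio of 0.692, which did not pass (adjusted p 0.0856), and the part of regulatory T cells in the Tnfrsf18 values was not tested. Il33, an alarmin that acts on tissue regulatory T cells, read 68.1, 57.9 and 103.9 in tumours and 14.9, 19.3 and 15.5 in non-tumour tissue (1.00 ± 0.13, adjusted p 0.00323). Itgae, the integrin chain CD103 of tissue-resident lymphocytes and some dendritic cells, fell to 33.6, 48.2 and 26.7 in tumours, against 104.3, 83.1 and 95.1 in non-tumour tissue and 87.5 and 83.0 on normal diet (-0.76 ± 0.09, adjusted p 0.00219). The 5 dendritic cell markers summed to 377 to 399 in tumours, 580 to 731 in non-tumour tissue and 552 to 697 on normal diet, nearly all of it from Bst2, which fell in tumours over non-tumour tissue (-0.47, adjusted p 0.0209). Siglech did not pass (adjusted p 0.846), Clec9a and Flt3 read at most 7.3 and Xcr1 was unlisted throughout, and the part of dendritic cells in the Itgae difference was not tested.

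In T cell signalling 1 of 15 tested genes rose and 1 fell in tumours over non-tumour tissue (of all genes 12% rose and 13.4% fell). Themis, which sets receptor signalling in developing T cells, was listed at 2.1 and 6.2 in tumours 117 and 186 and unlisted in tumour 1, read 25.5, 37.8 and 25.3 in non-tumour tissue, and was listed at 1.9 on normal diet 117 alone. Non-tumour tissue of all 3 mice stood above every other array. Themis entered the test only through that group, where it is high, so its calls (it is the 1 rise of 98 over normal diet liver) add no support to these values, and it was left out where a gene had to be listed on all 8 arrays. Without normal diet 117 or 120 the difference from normal diet liver was 0.70 and 0.68, against 0.69 with both. With the local background it was 0.08 and did not pass (adjusted p 0.999). Of the CD3 chains, Cd3d and Cd3g overlapped between all groups, and Cd3g and Cd3e lay near the blanks. The part of T cell number in the Themis values was not tested. Skap1, an adaptor of T cell adhesion, read 32.7, 47.3 and 55.9 in tumours, 15.1, 18.7 and 18.4 in non-tumour tissue and 22.3 and 22.8 on normal diet (tumour against non-tumour 0.53 ± 0.07, adjusted p 0.00384).

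Of B cell signalling and plasma cell genes 3 of 16 rose in tumours over non-tumour tissue and 0 fell (of all genes 12% rose and 13.4% fell). Blnk, an adaptor of the B cell receptor, read 278.1, 334.0 and 442.7 in tumours, against 65.2, 76.9 and 28.5 in non-tumour tissue and 25.7 and 42.7 on normal diet (2.11 ± 0.23 against non-tumour tissue, adjusted p 0.00166). Xbp1, a factor of the unfolded protein response that plasma cells and hepatocytes both use, read 1678, 1875 and 2164 in tumours, 952.0, 896.1 and 1084 in non-tumour tissue and 1680 and 1385 on normal diet (1.22 ± 0.08, adjusted p 0.000417). Of 5 hepatocyte markers 2 rose in tumours over non-tumour tissue, and their part in the Xbp1 difference was not tested. Blnk and Xbp1 rose while the B cell receptor chains Cd79a and Cd79b and the marker Cd22 did not pass, and the part of B cell number was not tested. The third gene, the B cell factor Ebf1, passed at 0.19 ± 0.05 (adjusted p 0.0317) and lost the call under 9 of 18 other settings. These 9 are not independent: leaving out either normal diet array repeats the result of fitting the compared groups alone.

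Among ligands of checkpoint and costimulatory receptors 2 of 10 rose and 0 fell in tumours over non-tumour tissue (of all genes 12% rose and 13.4% fell). Cd276, the checkpoint molecule B7-H3, read 32.5, 28.4 and 31.7 in tumours, 13.3, 11.7 and 7.5 in non-tumour tissue and 15.7 and 18.7 on normal diet (0.45 ± 0.07, adjusted p 0.00476). Pvr, a ligand of TIGIT and CD226, read 20.9, 28.8 and 33.9 in tumours, 10.6, 13.5 and 11.1 in non-tumour tissue and 16 and 12.6 on normal diet (0.35 ± 0.06, adjusted p 0.00539). For both genes the tumours lay above all other arrays, while Cd274 in the same tumours had a ratio of 0.758 to non-tumour tissue, which did not pass (adjusted p 0.0619). Of 15 NK and killer effectors Cd96, a receptor of the TIGIT family, rose and Klra3, a Ly49 receptor, fell, and neither passed with mouse number as a block (adjusted p 0.117 and 0.0683). With the local background in place of the blank spots, 2 of the 19 genes called here between tumour and non-tumour tissue still passed (Il33 and Cxcl11).

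**Figure D5:**
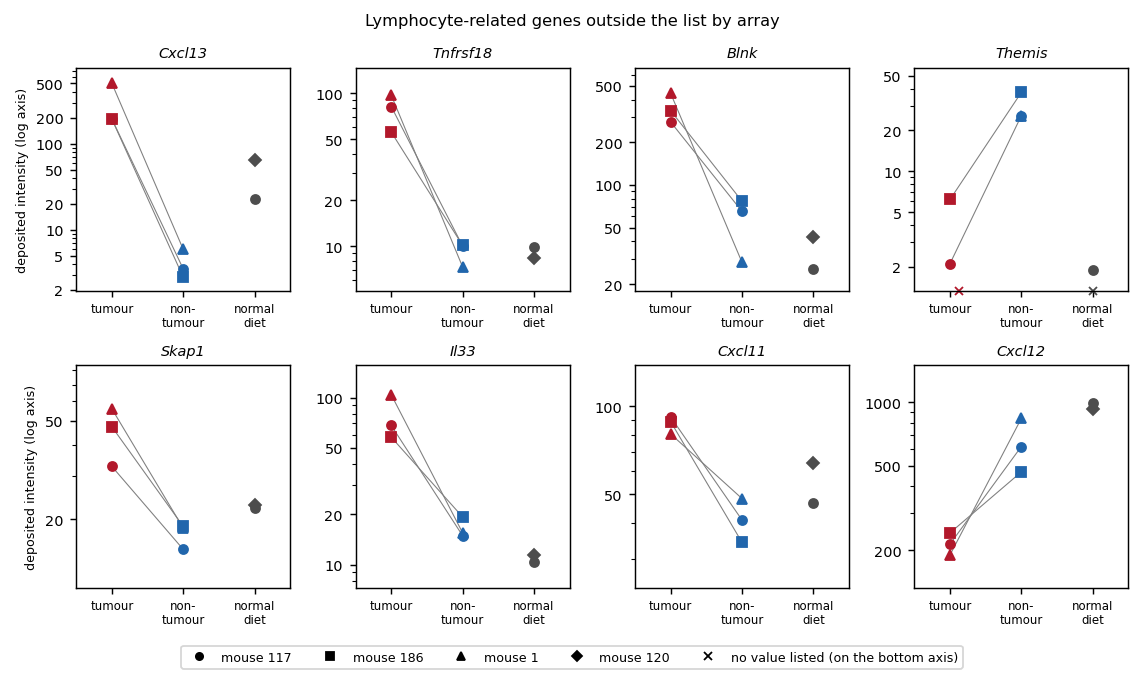
Deposited normalised intensity (log axes) of 8 genes that act with the lymphocyte genes, on each array, with lines joining tumour and non-tumour tissue of the same mouse and crosses on the bottom axis for unlisted values. The circle on normal diet is another mouse 117. Cxcl13, Tnfrsf18, Blnk, Skap1, Il33 and Cxcl11 are higher in all 3 tumours than in non-tumour tissue, Cxcl12 is lower, and Themis is highest in non-tumour tissue.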

How the data were processed

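Total liver RNA was amplified as aminoallyl RNA and coupled to Cy5, per the labels. The deposited tables hold normalised intensities of each probe, and the per-array files hold scanner intensities, per the file headers. As recomputed here, a deposited intensity is a spot's median less the average of 2736 blank spots, scaled on each array so that the median listed probe reads 25. Probes without a value lay near the blanks. What scanner software made them is not given in the sources used here.

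For the tests, normexp with blank spots for negative controls (offset 50) was applied to the spot medians, which were then quantile normalised and taken to log2 (limma 3.58.1, R 4.3.3). Of 23473 probes 20690 had 1 gene symbol, 2783 had none and 0 had several. A gene was read from the probe with the highest mean over 8 arrays, unlisted values counting as 0, and was tested if every array of some group listed it, which kept 16800 genes and left out 2521. Group means were fitted to all 8 arrays (5 residual and 1.49 prior degrees of freedom) and tested (2-sided, Benjamini-Hochberg over the genes tested). The fit was tested on simulated data. The 3 tumour, 3 non-tumour and 2 normal diet arrays limit the precision. The main fit takes the arrays as independent, those from the same liver included. Its p-values measure the spread between arrays within groups, and not that of the tissue differences between mice.

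Per the labels a mouse number marks tumour and non-tumour tissue of 1 liver. Deviations from group means had correlations of 0.442, 0.148 and 0.167 within a mouse and of -0.274 to 0.028 across mice. Mouse number entered as a block in an alternative. Other alternatives changed the background, scaling, offset, filter, samples fitted and probe choice, used the deposited intensities (log2 of value + 16), or left out each array. The members and lists were chosen with earlier results of these data known. All members are accounted for. Other genes named are up to 4 called per list and comparison by size, with Cxcl9, Cxcl16 and Ptprc, and the NK cell markers Klrb1c and Klra8. Ccl5 was added, chosen after its values were seen. Il1rl1 had no probe in the tables used here.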

Additional observations from a re-analysis of the deposited data

How the results depend on the processing

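The count of lymphocyte genes called between tumour and non-tumour tissue was 1, and became 0 with normexp on the local background. It was 1 to 3 when single high fat diet arrays were left out. It was 2 without tumour 117 and 3 without tumour 1, where 20.2% and 21.3% of all genes passed. With mouse number as a block it stayed 1 (Tbx21), and of the 19 other genes named in that comparison Cd96, Klra3 and Spi1 lost their call under the block. Between non-tumour and normal diet liver the count was 0, became 1 with arrays scaled to the same median (8.35% of all genes), and stayed 0 without any single high fat diet array. Between tumour and normal diet liver it was 1, and became 8 with arrays scaled to the same median (Cd3e included, tested only through normal diet). It became 2 with the deposited intensities, 2 with no filter, and 1 to 3 without single high fat diet arrays (of all genes 23.3% to 26.4%). Over all genes 40.8%, 31.2% and 23.8% passed under the first 3 of these, against 27.9%. Ebf1 turned to -0.044 between tumour and non-tumour tissue with the local background. The causes were not tested. Over all genes, 0.75% passed between tumour and non-tumour tissue with the local background, against 25.4%. The share of higher calls moved with scaling to the same median, to 37.3% against 47.1% (tumour minus non-tumour), 77.3% against 47.2% (non-tumour minus normal diet) and 39% against 46.2% (tumour minus normal diet). Of those 19 other genes, 2 kept their call under all settings run, 12 lost it under the local background alone, and 5 (Cd96, Klra3, Nt5e, Ebf1 and Spi1) lost it under more. Nt5e did so without each of non-tumour 117, 186 and 1 and tumours 186 and 1 (adjusted p 0.0611 to 0.103). It also did so with the compared groups alone, a result that leaving out either normal diet array repeats. Signal over background limits the 17 of 37 lymphocyte genes within 5 blank standard deviations of the blanks on some array, and the offset understates the folds of dim genes. A slide or scan block was not run, since the files name no slide shared by several arrays.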
